A study of Homo sapiens with 8 samples.

Results

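The genes that write, copy and remove DNA methylation were examined in the established cell line HCT116, grown from a human colon carcinoma. The set holds 9 genes of the 60609 gene rows in the count table, chosen by symbol: the methyltransferases DNMT1, DNMT3A and DNMT3B, the maintenance factor UHRF1, the oxidases TET1, TET2 and TET3, the glycosylase TDG, and GADD45A, the partner of the long non-coding RNA TARID. All 9 were found in the table under 1 identifier each, and all 9 passed the filter on low counts.

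The study sequenced RNA from 2 groups of 4 libraries. The parental group carries wild-type GNAS and is labelled as the control. The GNAS R201C/+ group was made from the same line by CRISPR-Cas9 and bears R201C, a known activating change of the stimulatory G protein alpha subunit, on one GNAS allele. Both groups were grown in the same serum-supplemented medium. The labels do not say whether the edited line is 1 clone or whether replicates were separate cultures, so the p-values given here reflect library-to-library spread alone, possibly technical, and an effect of the edit and a difference between clones cannot be told apart.

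Library totals lay between 42584988 and 50986733 counts. Total GNAS reads were at 661 to 700 CPM (a gene's reads scaled to its library's total, after TMM adjustment) in parental and 696 to 722 CPM in GNAS R201C/+ libraries, and such totals carry no allele. Of 9 colon epithelial markers, 6 were well counted, and 4 of them rose on the log2 scale, CDH1 by 0.33, KRT8 by 0.25, KRT18 by 0.22 and EPCAM by 0.11. CDX2 fell by 0.09, a call (edgeR adjusted p = 0.0421) lost by DESeq2 (0.0943) and in 5 of the 8 fits with 1 library left out, and KRT19 did not pass, while VIL1, CDH17 and LGALS4 had at most 10 reads in any library. The called share of the 6 colon markers was 83.3% at an edgeR adjusted p under 0.05. Of all tested genes 48.1% were called, 24.1% higher and 24.0% lower. Markers of leukocytes had at most 8 reads in any library, with PTPRC and CD3E listed at 0 in all 8. Of 5 fibroblast markers 2 were tested and of 4 endothelial markers 1 was, and none of these passed for a difference between groups. DCN and LUM were listed at 0. COL1A1, a fibroblast marker too, was well counted, with means of 30.3 CPM (parental libraries) and 29.9 CPM (edited libraries).

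Methyl groups on cytosine are placed on new CpG sites by DNMT3A and DNMT3B. After each round of replication they are copied to the daughter strand by DNMT1, which UHRF1 brings to hemimethylated sites. Removal begins with the TET enzymes, which oxidise 5-methylcytosine. TDG then cuts out the most oxidised forms and base excision repair fills the gap. GADD45A is a stress-induced adaptor that has no known enzyme activity and is reported to bring this demethylation machinery to chosen promoters, among them that of TCF21 through TARID. Colon cancers are known for methylated promoters at tumour suppressor genes, and HCT116 has been widely used to delete DNMT1 and DNMT3B.

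Nearly the whole set was slightly lower in GNAS R201C/+ cells. By edgeR's quasi-likelihood test (p-values adjusted by Benjamini-Hochberg across the 15751 genes tested), 7 of the 9 genes fell, 1 rose and TET2 did not pass. DNMT3A fell by 6.30%, the smallest of these falls, and TET3 fell by 18.9%, the largest, while GADD45A was 1.08-fold higher. Across all tested genes 48.1% were called at an adjusted p under 0.05, 24.1% higher and 24.0% lower, so small calls were common in this comparison. The median log2 fold change of the 9 genes was -0.16, beside 0.002 over all tested genes. Single libraries of the groups did not overlap for 7 of the 9 genes, beside 41.6% of all tested genes. No member passed a test against a 1.2-fold change (edgeR's glmTreat, adjusted p = 0.661 for TET3 and 1 for the others). In bulk RNA, fewer cells that express a gene and less of its RNA per cell cannot be told apart.

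**Figure D1:**
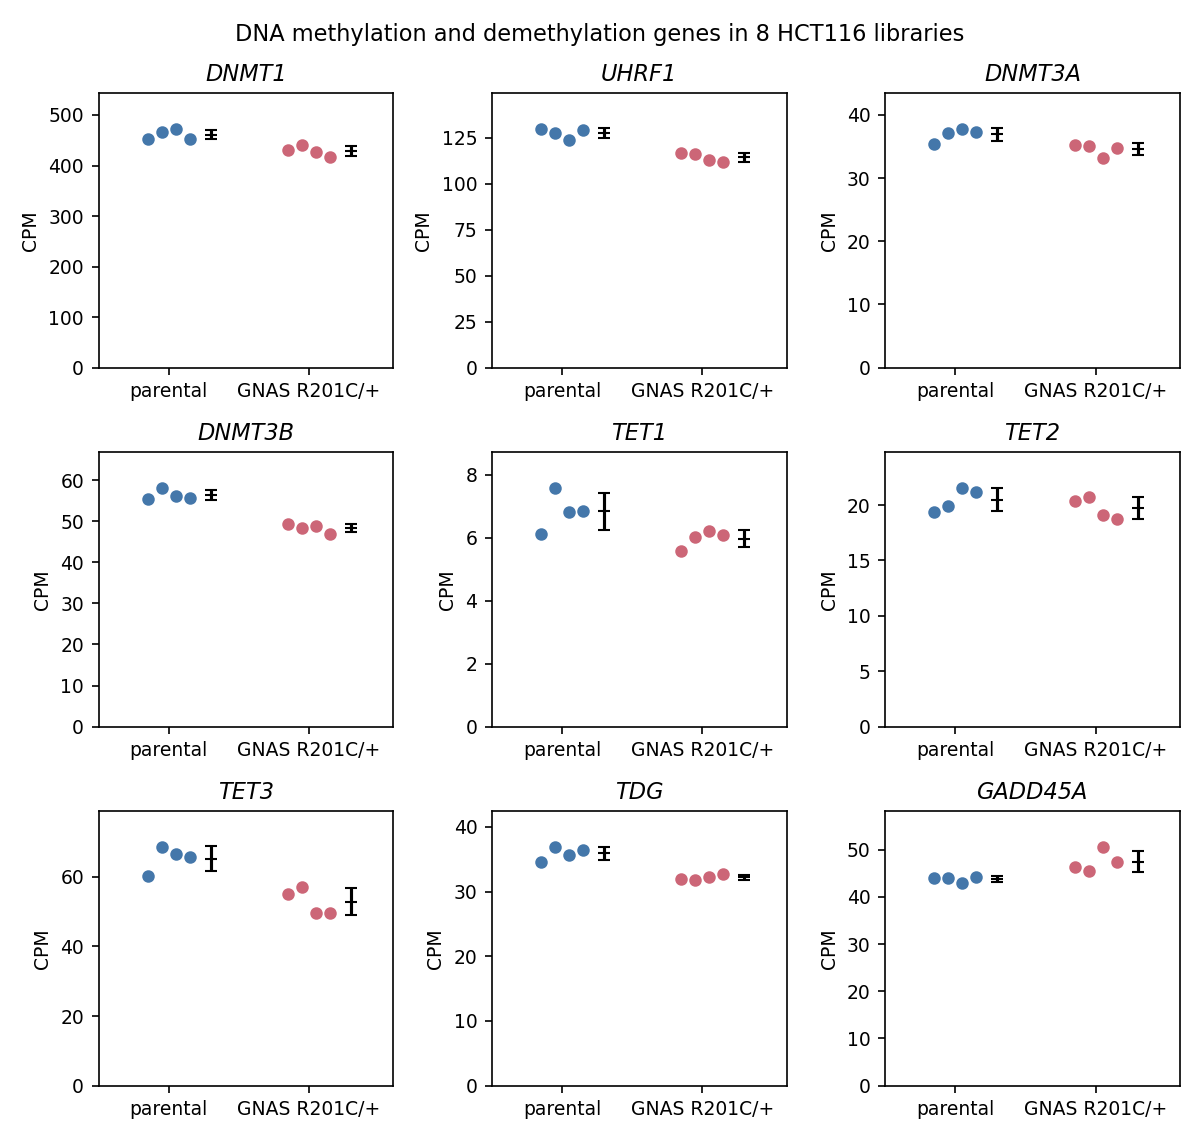
CPM of the 9 genes in each library, with 4 points per group in replicate order and the mean ± SD beside them, each panel starting at 0. TET3 shows the largest step down, GADD45A is the only gene higher in every GNAS R201C/+ library, and the groups overlap for TET1 and TET2.

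DNMT1, the maintenance methyltransferase (ENSG00000130816.16, GRCh38 chromosome 19, 10133345 to 10231286, minus strand), was at 453, 466, 472 and 453 CPM in parental replicates 1 to 4. In GNAS R201C/+ replicates 1 to 4 it was at 430, 440, 427 and 417 CPM. Every edited library lay below every parental one, by little. Its log2 fold change was -0.10 ± 0.02 (SE, edgeR adjusted p = 3.61e-05). DNMT1 shares 83 exonic bases with S1PR2 on the same strand, a small part of its 9796 exonic bases.

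UHRF1, the reader of hemimethylated CpG that recruits DNMT1 (ENSG00000276043.5, chromosome 19, 4903080 to 4962154, plus strand), was at 130, 128, 124 and 129 CPM in parental libraries. It was at 116, 116, 113 and 112 CPM in GNAS R201C/+ libraries, again with no overlap. Its log2 fold change was -0.16 ± 0.02 (SE, edgeR adjusted p = 1.36e-07). The per-library log2 ratio of UHRF1 to DNMT1 went from -1.85 ± 0.06 to -1.91 ± 0.02 (SD, n = 4), and that difference of -0.05 did not pass (exact permutation test over libraries, two-sided, p = 0.171, adjusted p = 0.245 over 10 pairs). UHRF2, the paralogue of UHRF1, was at 46.6 ± 2.18 and 43.9 ± 0.782 CPM (SD, n = 4). It fell by 0.08 on the log2 scale, a call (edgeR adjusted p = 0.0242) lost with parental replicate 2 (0.134), parental replicate 4 (0.0843) or edited replicate 4 (0.0856) left out, and by DESeq2 (0.0518).

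UHRF1 is a known target of E2F factors, which drive S phase genes, and its start regions were read for letters of that kind. Of the 9 genes 8 had entries in the RefSeq promoter table (GRCh38.p14), with 19 windows of 250 bases before a start site in all. GADD45A had no entry. TTTCCCGC, TTTCGCGC, TTTGCCGC or TTTGGCGC was sought on both strands. Only 2 of the 19 windows held one, both of UHRF1, and 2.79% of all 35116 windows did. The window before one of its starts, chr19:4909894-4910143 on the plus strand, is shown with those letters in capitals.
UHRF1: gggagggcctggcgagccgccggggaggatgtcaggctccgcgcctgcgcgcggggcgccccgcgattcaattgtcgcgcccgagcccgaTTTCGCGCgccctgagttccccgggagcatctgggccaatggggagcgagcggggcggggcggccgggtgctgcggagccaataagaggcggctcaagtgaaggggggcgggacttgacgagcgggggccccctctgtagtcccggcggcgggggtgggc

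The cAMP response element TGACGTCA, the site of CREB, which signalling from the stimulatory G protein activates, was in 0 of the 19 windows and in 1.65% of all windows. Its core TGACG, or CGTCA on the other strand, was in 4 of the 19, in windows of TDG, TET2 and UHRF1, and in 21.2% of all. A match is a run of letters and not a binding site, and no match speaks only of these 250 bases.

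DNMT3B, a de novo methyltransferase (ENSG00000088305.18, chromosome 20, 32762385 to 32809356, plus strand), was at 55.4, 58.0, 56.0 and 55.7 CPM in parental libraries. It was at 49.4, 48.3, 48.8 and 46.9 CPM in GNAS R201C/+ libraries. The groups were well apart, with a log2 fold change of -0.22 ± 0.03 (SE, edgeR adjusted p = 1.10e-08). DNMT3B lies on the same chromosome as GNAS, the edited gene, but far from it, as GNAS spans 58839718 to 58911192. A link between the 2 loci was not tested.

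DNMT3A, the other de novo enzyme (ENSG00000119772.16, chromosome 2, 25227855 to 25342590, minus strand), was at 35.5, 37.1, 37.7 and 37.4 CPM in the parental libraries. The edited libraries had 35.3, 35.0, 33.1 and 34.7 CPM. The lowest parental and the highest edited library nearly met. Its log2 fold change was -0.09 ± 0.03 (SE, edgeR adjusted p = 0.0147), and the call ended without GNAS R201C/+ replicate 3 (adjusted p = 0.0831). DNMT3L, the germ cell cofactor of these enzymes, had at most 1 read in any library.

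The balance between the methyltransferases was compared as a ratio within each library, which does not depend on how libraries are scaled. The log2 ratio of DNMT3B to DNMT3A was 0.61 ± 0.04 in parental and 0.48 ± 0.05 in GNAS R201C/+ libraries (SD, n = 4). The ratio of DNMT3B to DNMT1 went from -3.03 ± 0.03 to -3.15 ± 0.03. Neither pair of groups overlapped, and each gave an exact permutation p = 0.0286, the smallest that 70 arrangements allow, but an adjusted p = 0.0571 over the 10 pairs, which does not pass. Pairs at that smallest p share the same adjusted p, which depends on how many of the 10 pairs reach it. Missing the threshold is therefore no evidence against a difference in a given pair. For DNMT3A to DNMT1 the difference was 0.0095 (exact permutation p = 0.771).

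Per kilobase of exon the order was the same in both groups for most genes. DNMT1 led every library, at 47.1 ± 0.948 RPKM (CPM per kilobase of annotated exon) in parental and 43.8 ± 0.949 RPKM in GNAS R201C/+ libraries (SD, n = 4). UHRF1 at 24.8 ± 0.506 RPKM came before GADD45A at 21.2 ± 0.262 RPKM in parental cells. The order of the means was exchanged in GNAS R201C/+ cells, at 22.2 ± 0.459 and 22.9 ± 1.05 RPKM, means closer than their spread. UHRF1 still came first in GNAS R201C/+ replicates 1 (22.64 against 22.40 RPKM) and 2 (22.58 against 22.01 RPKM). DNMT3B, TDG, TET3, DNMT3A, TET2 and TET1 followed in that order in each of the 8 libraries, from 12.2 down to 0.735 RPKM in parental cells. DNMT1 thus held 75.3% to 76.0% of the summed RPKM of the methyltransferases in parental and 76.4% to 77.1% in GNAS R201C/+ libraries. DNMT3A held 4.83% to 5.06% in the former and 4.84% to 5.20% in the latter. These levels depend on the length used. With the longest annotated transcript in place of all exons, DNMT1 was at 85.2 and 79.3 RPKM and held 83.3% to 83.8% and 84.0% to 84.6% of its family. TET2 was then at 2.02 and 1.94 RPKM and held 22.3% to 24.4% and 26.5% to 27.2% of the TET total, and the order of all 9 genes was the same.

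**Figure D2:**
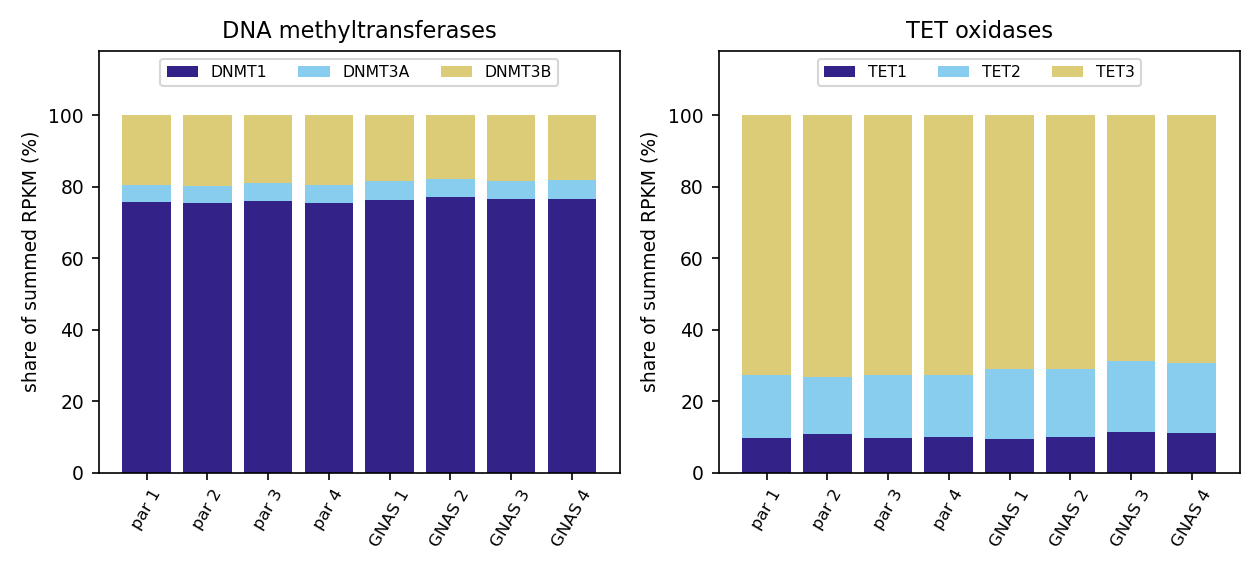
Share of the summed RPKM (percent) held by each methyltransferase on the left and each TET gene on the right, one bar per library, with 4 parental and 4 GNAS R201C/+ bars. DNMT1 and TET3 hold most of their family in every library, and TET2 takes 15.9% to 17.5% of the TET total in parental and 19.2% to 19.8% in GNAS R201C/+ libraries.

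TET3, the most abundant TET oxidase here (ENSG00000187605.15, chromosome 2, 73986404 to 74108176, plus strand), was at 60.2, 68.5, 66.5 and 65.6 CPM in parental libraries. In GNAS R201C/+ libraries it was at 55.1, 57.1, 49.7 and 49.6 CPM. Parental replicate 1 was low and edited replicates 1 and 2 were high within their groups, and the groups still did not overlap. TET3 had the largest change of the set, with a log2 fold change of -0.30 ± 0.06 (SE, edgeR adjusted p = 0.00160), a 1.23-fold difference.

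TET1, the oxidase best known from embryonic stem cells (ENSG00000138336.9, chromosome 10, 68560656 to 68694482, plus strand), was low, with 6.10, 7.57, 6.80 and 6.85 CPM in the parental libraries. The edited ones had 5.59, 6.03, 6.20 and 6.07 CPM. The groups overlapped through parental replicate 1. Its log2 fold change was -0.19 ± 0.07 (SE, edgeR adjusted p = 0.0211). The call ended without parental replicate 2 (adjusted p = 0.129) or GNAS R201C/+ replicate 1 (0.0811), and by DESeq2 (0.0516).

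TET2, often mutated in blood cancers (ENSG00000168769.13, chromosome 4, 105145875 to 105279816, plus strand), was at 19.3, 19.9, 21.5 and 21.1 CPM in parental libraries. It was at 20.4, 20.7, 19.1 and 18.7 CPM in GNAS R201C/+ libraries, interleaved with the parental ones. The log2 difference was -0.05 ± 0.04 (SE, edgeR adjusted p = 0.328). The log2 ratio of TET3 to TET2 went from 1.67 ± 0.07 in parental to 1.42 ± 0.04 in GNAS R201C/+ libraries (SD, n = 4) with no overlap, at an exact permutation p = 0.0286 and an adjusted p = 0.0571. The ratio of TET3 to TET1 differed by -0.11 (exact permutation p = 0.229) and that of TET2 to TET1 by 0.14 (p = 0.257), in both cases with overlapping groups.

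TET3 has a pair of RefSeq start sites in the promoter table, both in CpG-dense sequence, shown here because TET3 moved most and TET enzymes act on CpG. Capitals mark CpG. The first window, chr2:73984660-73984909, holds 37 CpG and the second, chr2:74002442-74002691, holds 27, against a median of 11 over all windows. Such density is not particular to TET3, as the 19 windows of the members hold 3 to 41 CpG. A window of UHRF1 holds 41, and one of TET2, which did not pass, holds 34.
TET3, first start: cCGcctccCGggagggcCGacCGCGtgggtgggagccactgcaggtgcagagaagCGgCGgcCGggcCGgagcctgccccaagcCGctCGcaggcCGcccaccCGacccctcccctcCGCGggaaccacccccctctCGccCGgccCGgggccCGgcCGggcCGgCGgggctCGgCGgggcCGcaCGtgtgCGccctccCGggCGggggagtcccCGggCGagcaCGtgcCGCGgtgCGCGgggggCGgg
TET3, second start: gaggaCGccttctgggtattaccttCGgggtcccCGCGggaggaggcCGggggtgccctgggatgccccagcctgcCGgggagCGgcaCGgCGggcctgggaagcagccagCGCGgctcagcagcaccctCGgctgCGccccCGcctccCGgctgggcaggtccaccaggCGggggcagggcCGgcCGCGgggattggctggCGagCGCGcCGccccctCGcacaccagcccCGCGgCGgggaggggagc

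The genes whose log2 CPM followed TET3 most closely over the 8 libraries were MDN1, an ATPase of ribosome assembly (Pearson r = 0.995), the nuclear receptor corepressor gene LCOR (0.995) and NABP1, a single-strand DNA binding gene (0.994). These values are a description over 8 points that share library and group, and 12 of 10500 genes compared were above 0.99. MDN1 had 233 ± 13.6 CPM in the parental and 177 ± 15.7 CPM in the edited libraries (SD, n = 4).

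TDG, the glycosylase that removes oxidised and mismatched bases (ENSG00000139372.15, chromosome 12, 103965804 to 103988874, plus strand), was at 34.7, 36.9, 35.7 and 36.5 CPM in parental libraries. It was at 31.9, 31.9, 32.3 and 32.8 CPM in GNAS R201C/+ libraries, a narrow band below all parental ones. Its log2 fold change was -0.16 ± 0.03 (SE, edgeR adjusted p = 7.60e-05). Its pseudogene TDGP1 had at most 4 reads in any library. MBD4, the other thymine glycosylase at CpG sites, was at 25.3 ± 0.582 and 26.6 ± 1.07 CPM (SD, n = 4), a log2 difference of 0.07 (edgeR adjusted p = 0.0971). MBD4 passed without GNAS R201C/+ replicate 3 (0.0471). The log2 ratio of MBD4 to TDG went from -0.51 ± 0.04 to -0.28 ± 0.07 with no overlap (exact permutation p = 0.0286, adjusted p = 0.0571).

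GADD45A, the adaptor that TARID is reported to recruit (ENSG00000116717.13, chromosome 1, 67685061 to 67688338, plus strand), was the member that rose. Parental libraries had 43.9, 43.9, 42.98 and 44.2 CPM, and edited ones 46.3, 45.5, 50.5 and 47.4 CPM. Replicate 3 of the edited group was the highest and its other libraries stood closer to the parental band. The log2 fold change was 0.12 ± 0.03 (SE, edgeR adjusted p = 0.00169). GADD45B, its stress-induced paralogue, fell from 30.5 ± 0.852 to 27.6 ± 1.48 CPM (SD, n = 4, edgeR adjusted p = 0.00134). The log2 ratio of GADD45B to GADD45A went from -0.52 ± 0.06 to -0.78 ± 0.09, with no overlap and an exact permutation p = 0.0286 (adjusted p = 0.0571). GADD45G had at most 12 reads in any library.

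TCF21 and TARID, the locus that links GADD45A to demethylation, changed far more than any member. TCF21 had 17 to 43 reads per parental library and 590 to 660 per GNAS R201C/+ library, and TARID had 33 to 42 and 485 to 550. The libraries of the groups stood far apart at both genes. They share 1383 exonic bases on opposite strands, so that part of their reads may be mixed. The log2 fold change of TCF21 was 4.42 (edgeR adjusted p = 2.39e-30), beside 0.12 for GADD45A, -0.16 for TDG and -0.30 for TET3. DNA methylation itself was not measured, and a part of the methylation genes in the rise of TCF21 was not tested.

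The start of TCF21 is printed because it is the reported target of TARID and GADD45A. In the RefSeq table the TARID start lies 107 bases before that of TCF21 on the other strand, inside the window chr6:133888863-133889112 (plus strand). This window holds 5 CpG, in capitals, with an observed over expected CpG ratio of 0.29, beside a median of 0.56 over all windows.
TCF21: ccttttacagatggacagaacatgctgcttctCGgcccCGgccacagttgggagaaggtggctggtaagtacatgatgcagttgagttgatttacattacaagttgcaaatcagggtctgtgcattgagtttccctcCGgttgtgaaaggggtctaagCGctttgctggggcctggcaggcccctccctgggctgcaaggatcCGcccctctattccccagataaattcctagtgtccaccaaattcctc

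Of 18 listed partners of the methyltransferases 15 were tested, of which 7 fell, 1 rose and 7 did not pass, with a median log2 fold change of -0.06. The called share, 53.3%, was near the 48.1% of all tested genes. CDCA7, which works with the remodeller HELLS in maintenance methylation, fell from 110 ± 1.45 to 98.2 ± 2.57 CPM (SD, n = 4). The deubiquitinase gene USP7, which stabilises DNMT1, fell by 0.14 on the log2 scale. NSD2, a histone H3 lysine methyltransferase, fell by 0.12. TRDMT1, once named DNMT2 and known to methylate transfer RNA, fell from 13.7 ± 0.381 to 10.9 ± 0.431 CPM, the largest change of the list. The 1 gene that rose was PCLAF, named after its values were seen, at 0.13 on the log2 scale. It shares 1077 exonic bases with a gene on the same strand, and the count of rising genes was 0 without parental replicate 1, 2 or 3 and without GNAS R201C/+ replicate 1 or 4. EHMT2, a gene that most cells use, was listed at 0 in all 8 libraries, so a 0 in this table does not show that a gene was silent.

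**Figure D3:**
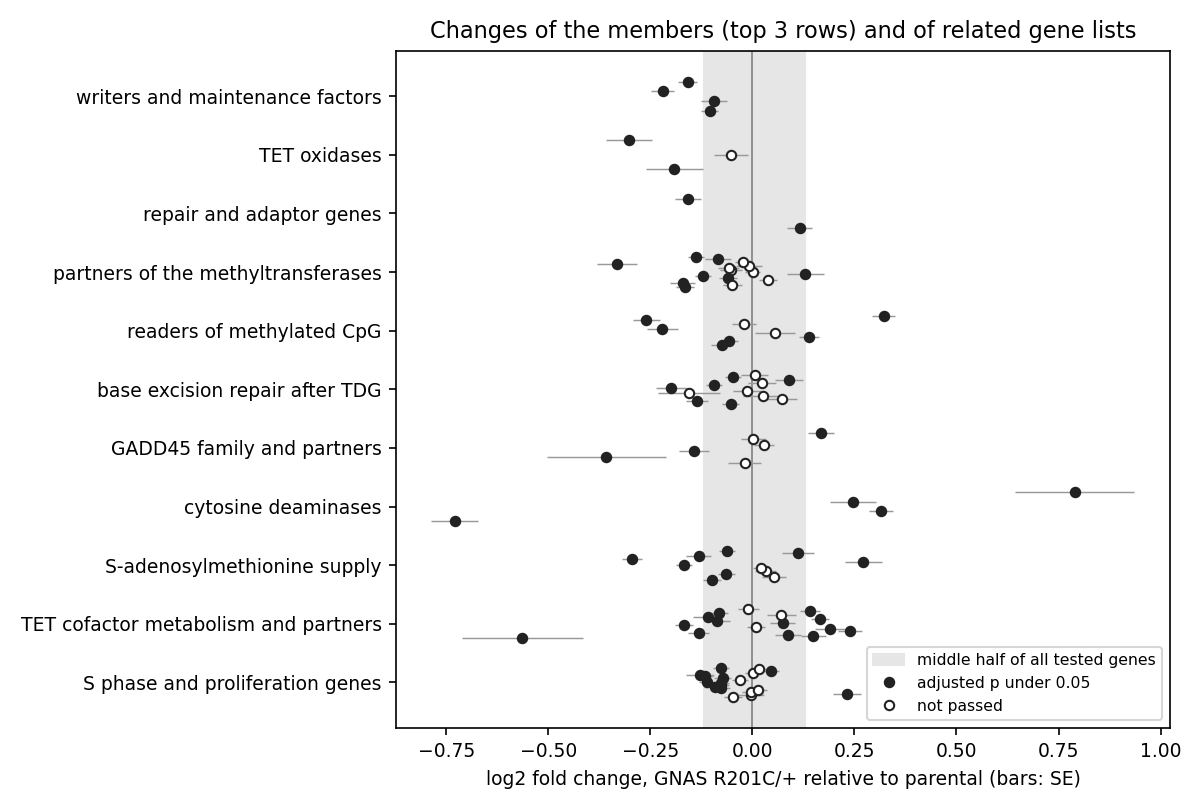
Log2 fold change (GNAS R201C/+ relative to parental, bars are SE) of each tested gene, one row per gene list, with the 9 members in the top 3 rows. Filled points passed at an adjusted p under 0.05, open points did not, and the grey band runs from the lower to the upper quartile of all tested genes. Among the members UHRF1, DNMT3B, TET1, TET3 and TDG lie left of the band and the other 4 lie inside it, and of the 11 lists drawn the cytosine deaminases span the widest range, from -0.73 to 0.79.

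Readers of methylated CpG moved in both directions. Of 8 tested genes 4 fell and 2 rose, and the count of falls was 2 without parental replicate 3 and without GNAS R201C/+ replicate 3. Their called share was 75%, beside 48.1% of all tested genes. ZBTB38, a zinc finger repressor that binds methylated DNA, rose from 55.4 ± 1.76 to 69.3 ± 1.95 CPM (SD, n = 4). ZBTB33, which encodes the related reader Kaiso, fell from 37.6 ± 1.27 to 31.4 ± 0.838 CPM. MBD6 fell by 0.22, and MBD3, a subunit of the NuRD complex, rose by 0.14 on the log2 scale. MBD3 shares 767 exonic bases with another gene on the same strand and is uncertain. ZBTB4 was listed at 0 in all 8 libraries.

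Of 12 base excision repair genes that act beside or after TDG, 5 fell, 1 rose and 6 did not pass, with 3 falls without parental replicate 1. The called share, 50%, was near the 48.1% of all tested genes. NTHL1, a glycosylase of oxidised pyrimidines, fell from 32.8 ± 2.01 to 28.7 ± 0.598 CPM (SD, n = 4). LIG3, the ligase that closes the repaired strand, fell by 0.14 and the strand break sensor PARP1 by 0.09 on the log2 scale. LIG3 shares 3754 exonic bases with RFFL on the opposite strand. SMUG1, a uracil glycosylase, rose by 0.09 (edgeR adjusted p = 0.0300), a call lost when parental replicate 2 (0.101) or 4 (0.0849) was left out, when edited replicate 3 (0.107) or 4 (0.0537) was, by DESeq2 (0.0651) and with no filter on low counts (0.0595). Among 6 tested relatives and partners of GADD45A, TAF12, a TFIID subunit, rose by 0.17, while GADD45B and ERCC5 fell, a called share of 50%. ERCC5, a nuclease of excision repair, shares 5213 exonic bases with BIVM-ERCC5 on the same strand, and its call (adjusted p = 0.0403) was lost in 6 of the 8 fits with 1 library left out, at 0.0548 to 0.150, and held without parental replicate 1 and without GNAS R201C/+ replicate 3. It was also lost by DESeq2 (0.1003), by voom (0.0526) and with no filter on low counts (0.0779).

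Of the cytosine deaminase genes, all 4 tested of 10 listed genes passed, 3 up and 1 down, where 48.1% of all tested genes were called. APOBEC3B, a nuclear deaminase known for mutation in cancers, had 13.1, 11.6, 12.4 and 12.4 CPM in the parental and 7.11, 7.67, 7.11 and 7.97 CPM in the edited libraries, a fall of 0.73 on the log2 scale (edgeR adjusted p = 3.33e-14). APOBEC3C rose from 57.6 ± 1.62 to 71.7 ± 3.002 CPM, APOBEC3F rose by 0.25 on the log2 scale, and APOBEC3H rose from 0.823 ± 0.0202 to 1.42 ± 0.0940 CPM (SD, n = 4). These genes are near copies of each other in 1 cluster on chromosome 22, so reads may be shared among them.

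Genes that supply S-adenosylmethionine, the methyl donor, were mixed, and of 11 tested 6 fell, 2 rose and 3 did not pass. Their called share was 72.7%, beside 48.1% of all tested genes. The count of rises was 1 without parental replicate 2 or 3. MTR, the methionine synthase gene, had 77.7 to 80.2 CPM in the parental and 62.7 to 65.2 CPM in the edited libraries, a fall of 0.30 on the log2 scale. AHCY, which clears the inhibitory product S-adenosylhomocysteine, fell by 0.10, and MTHFD2, of mitochondrial folate metabolism, fell by 0.17.

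Genes around the TET cofactor 2-oxoglutarate were split. Of 16 tested, 7 rose, 6 fell and 3 did not pass, with a median log2 change of 0.04. Their called share was 81.2%, beside 48.1% of all tested genes. IDH1, which makes 2-oxoglutarate in the cytosol, rose from 106 ± 2.70 to 125 ± 6.41 CPM (SD, n = 4), and OGDH, which consumes it, rose by 0.17. SDHC, a subunit of succinate dehydrogenase, rose by 0.14 and the mitochondrial IDH3B fell by 0.17 on the log2 scale.

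DNMT1 and UHRF1 are known to follow the cell cycle, so S phase and proliferation genes are given beside them. Of 18 tested genes 9 fell, 2 rose and 7 did not pass, with a median log2 change of -0.06. Their called share was 61.1%, beside 48.1% of all tested genes. Summed over the list, levels were 5838 to 5886 CPM in the parental and 5501 to 5723 CPM in the edited libraries, and the count of rises was 1 in place of 2 in 6 of the 8 fits with 1 library left out. MCM7, MCM4 and MCM3, subunits of the replicative helicase, fell by 0.12, 0.11 and 0.08 on the log2 scale. The cyclin gene CCNE2 rose by 0.23 and overlaps INTS8, on the other strand, over 1629 exonic bases. PCNA, the sliding clamp that DNMT1 binds, was at 356 ± 4.14 and 356 ± 2.28 CPM. The part of proliferation in the fall of DNMT1 and UHRF1 was not tested.

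Genes whose promoters are commonly methylated were read beside the machinery. Of 27 genes often methylated in colorectal cancer 13 were tested, and there 7 rose, 1 fell and 5 missed the threshold, with a median log2 change of 0.17. The called share was 61.5%, beside 48.1% of all tested genes, 24.1% higher and 24.0% lower. Without GNAS R201C/+ replicate 3 the count of rises was 5. Besides TCF21, UNC5C, a netrin receptor gene, had 0 reads in all 4 parental libraries and 12 to 15 in each GNAS R201C/+ library. With a floor of 3 counts over the parental group it was at least 17.1-fold higher. UNC5C passed the filter on low counts only through the edited libraries, so it could enter the count and the median only as a rise. CDKN2A, the cell cycle inhibitor gene, had 38.6 to 42.2 CPM in the parental and 45.0 to 46.9 CPM in the edited libraries, and overlaps CDKN2B-AS1 on the other strand over 341 exonic bases. Another 10 genes of the list, SFRP1 and GATA4 among them, were listed at 0 in every library.

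Germline genes, a class kept silent by promoter methylation in body cells, were mostly near 0 in both groups. Of 22 listed genes 19 were not tested, with at most 11 reads in any library. MAGEB2 and MAGEA3 were well counted in both groups, at 200 ± 5.85 and 213 ± 4.60 CPM for MAGEB2 (SD, n = 4). MAGEB2 rose by 0.09 and MAGEA3 by 0.06 on the log2 scale. The MAGEA3 call (edgeR adjusted p = 0.0320) was lost with parental replicate 1 (0.0528), 2 (0.120) or 3 (0.0615) left out, with edited replicate 2 (0.0787) or 3 (0.0872) left out, by DESeq2 (0.0594), with library totals only (0.0516) and with no filter on low counts (0.0711). MAGEA3 is a near copy of MAGEA6, which had at most 3 reads, so its reads are uncertain.

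Imprinted genes, whose alleles are marked by methylation from one parent, did not move together. Of 12 tested genes 3 fell, 1 rose and 8 did not pass, a called share of 33.3% beside 48.1% of all tested genes. H19, a non-coding RNA of the maternal allele, had 1.39 to 1.62 CPM in the parental and 3.68 to 4.37 CPM in the edited libraries, a rise of 1.36 on the log2 scale (edgeR adjusted p = 2.15e-14). IGF2, its neighbour under the same control region, was at 1.63 ± 0.0917 and 1.78 ± 0.319 CPM (SD, n = 4, adjusted p = 0.459, named after its values were seen). This IGF2 entry shares 5144 of its 6979 exonic bases with a second IGF2 identifier on the same strand, and others with INS-IGF2, so its reads are uncertain. PEG10, a gene of retroviral origin, fell from 59.3 ± 0.763 to 46.0 ± 1.74 CPM, and the growth factor receptor adaptor gene GRB10 fell by 0.24. SGCE, which shares 219 exonic bases with PEG10 on the opposite strand, fell by 0.12 (adjusted p = 0.0344). It was lost with parental replicate 1 (0.0514), 3 (0.0695) or 4 (0.115) left out, with edited replicate 1 (0.203), 2 (0.0686) or 3 (0.0631) left out, and by DESeq2 (0.0708).

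**Figure D4:**
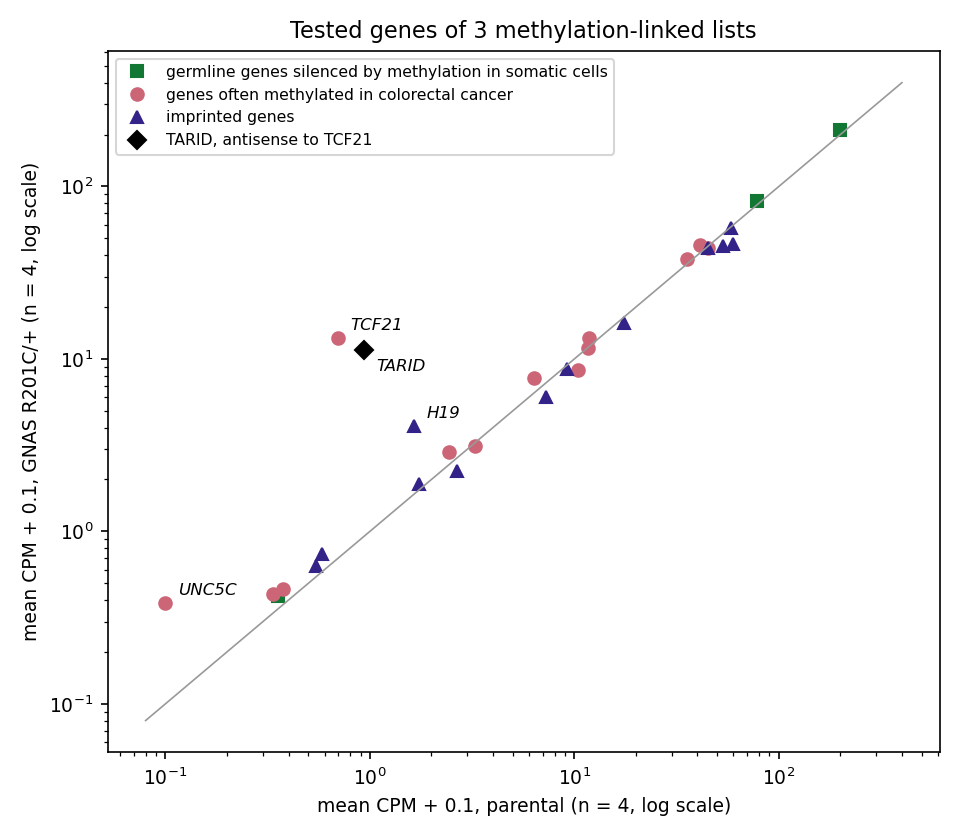
Mean CPM plus 0.1 in parental (x) and GNAS R201C/+ (y) libraries, both on log axes, for the tested germline, colorectal cancer and imprinted genes and for TARID, with the line of equal level. TCF21, TARID, H19 and UNC5C, the last with 0 parental reads, lie well above the line and the other genes lie near it.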

How the data were processed

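The authors deposited raw read counts per gene, whole numbers, 1 column per library, and all 8 columns were used. Per the submitters' processing notes, bcl2fastq, Trimmomatic, STAR, featureCounts and DESeq2 were used with GRCh38.p12. The sources used here do not state versions, the annotation release or the strand and multi-mapping settings. Names, positions and exonic lengths were taken from GENCODE 29, which matched 58457 of 60609 identifiers. RPKM was computed over the union of annotated exons, with the longest transcript as an alternative.

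Counts were tested in R 4.3.3 with edgeR 4.0.16 (filterByExpr with minimum count 10, TMM, robust quasi-likelihood F test, group as the only term), which kept 15751 genes, with Benjamini-Hochberg adjustment and a threshold of 0.05. The SE was approximated from the F statistic as the size of the log2 change over the root of F. Alternatives used limma 3.58.1 (voom), DESeq2 1.42.0, other scalings and filters, glmTreat, a replicate block and each library left out. On simulated counts of 15751 genes the test recovered 72% of 1.2-fold and 98% of 2-fold changes. There 50 genes were changed at each of the folds 1.2, 1.5, 2 and 4, while 7577 genes were called in the data. The adjustment is stricter when fewer genes change, so these rates do not carry over directly. Folds under 1.2, as seen for all members but TET3, were not simulated. Log2 ratios of 10 gene pairs (prior count 0.5) were tested by exact permutation of libraries.

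Members and lists were chosen with earlier results of these data known. Named are the members, the pair genes, TCF21, TARID, up to 4 called genes per list by smallest adjusted p, undetected list members, and the 3 genes most correlated with the most changed member (mean of at least 5 CPM). Other genes were named after their values were seen. Some genes of the lists are counted in their totals and not reported here by name.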

Additional observations from a re-analysis of the deposited data

Results flagged for a closer look

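A single library stood apart from the other 3 of its group in 2 of the 38 groups of 4 values examined for the members and their ratios. Chance would give about 1 in 20. The log2 ratio of TET2 to TET1 was 1.40 in parental replicate 2 and 1.62 to 1.66 in the other parental libraries, a gap of 0.853 of the group's range. The log2 ratio of TET3 to TET2 was 1.78 in parental replicate 2 and 1.63 to 1.64 in the others, a gap of 0.929 of the range.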

How the results depend on the processing

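The 7 members that fell and GADD45A kept their direction in all 17 alternative fits. Against a 1.2-fold change, 0 members were called (0 lower, 0 higher), as were 6 genes of the related lists in place of 73 and 1074 of all tested genes in place of 7577. That test asks for a larger change by its construction. Leaving out 1 library each time gave 7 to 8 called members (6 to 7 lower, 1 higher), 62 to 69 genes of the lists and 6905 to 7442 genes in all. Samples of the same replicate number did not deviate together (r = -0.0470, 0.0538, -0.0288 and -0.0362), so the numbers do not pair them, and with the number as a block 8 members and 7413 genes were called. No ratio passed after adjustment by exact permutation, 5 of 10 were under 0.05 unadjusted, and within replicate numbers (block) 0 were, since the smallest p is then 0.125. DESeq2 called 7 members, without TET1 (adjusted p = 0.0516), and voom and the other scalings and filters called 8. TET1, with 261 to 348 reads per library, was the least deeply counted member.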
